A study of Mus musculus with 8 samples.

Results

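The genes of 2 families of RNA-binding proteins that act on pre-mRNA splicing, the SR proteins and the heterogeneous nuclear ribonucleoproteins (hnRNPs), were followed across 2 states and 2 sequencing kits of mouse embryonic stem cells (ESCs). Members were all genes whose symbol starts with Srsf and a digit or with Hnrnp, which gave 31 of the 24421 genes counted, 11 SR proteins and 20 hnRNPs. The cells were of the R1 line, and the labels name no genetic change in any group. Undiff cells had received no retinoic acid (RA) and by the methods were kept with leukaemia inhibitory factor (LIF). Day4 cells were embryoid bodies, the cell aggregates that ESCs form when they differentiate. By the methods these grew for 4 days without LIF and then for 4 days with RA. Effects of RA, the loss of LIF, aggregation and time in culture therefore cannot be told apart. The RA dose was 2 µM by the methods, while the treatment label of a sample gives millimolar. The labels also call the Undiff material embryoid bodies in stem cell medium, where the methods describe undifferentiated ESCs. Polyadenylated RNA was sequenced on Oxford Nanopore flow cells as native RNA (Direct RNA, 500 ng of input) or as amplified cDNA (cDNA, 50 ng), with 2 replicates for each state and kit, hence 8 libraries in 4 groups. The methods describe 2 biological replicates of the experiment, and by the paper the extracted RNA went into both kits. The kits are therefore not independent of each other, and the labels do not say which libraries share a culture. Both kits give bulk measurements of mixed cells, so fewer cells that express a gene and less RNA per cell cannot be told apart.

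SR proteins carry an RNA-recognition motif and a tail rich in arginine and serine, and they mostly bind exonic enhancers and draw the spliceosome to nearby splice sites. The hnRNPs coat nascent transcripts and often act the opposite way, holding splice sites silent, while many of them also work in export, stability or translation of the mRNA. The balance between these families is known to set the choice of alternative exons, which shifts widely when stem cells differentiate.

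Reads on genes ranged from 283461 to 907489 in the Direct RNA libraries and from 948657 to 2088592 in the cDNA libraries. Levels below are CPM, reads of a gene per 1000000 reads on genes, and 3 reads, the lowest level a library can show with any certainty, came to between 1.44 and 10.6 CPM. The state labels were checked on marker genes. The summed level of 8 pluripotency genes was 10656 to 12731 CPM in Undiff and 116 to 525 CPM in Day4 with Direct RNA, and all 8 were called lower with both kits. Of the 8 genes of the RA response, 7 were called higher with Direct RNA and 8 with cDNA. The 5 mesenchymal markers were called higher with both kits, and their sum went from 156 to 198 CPM up to 2106 to 3842 CPM with Direct RNA and from 41.1 to 72.8 CPM up to 708 to 715 CPM with cDNA. Endoderm markers, of which Gata6 and Afp were at 0 in both Direct RNA Undiff libraries, summed to 6.61 to 8.61 CPM in Undiff and 605 to 910.2 CPM in Day4 with that kit. Of 7 neural markers Ncam1 was called higher and Tubb3 lower with both kits. The part of this change in cell types in the changes of the splicing factors was not tested.

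Together the 20 hnRNPs took a larger share of the reads than the 11 SR proteins in every library. With Direct RNA, SR proteins held 0.429% and 0.453% of reads in the Undiff libraries and 0.297% and 0.315% in the Day4 libraries. The 95% Wilson interval of the lowest Undiff share, 0.408% to 0.452%, lay above that of the highest Day4 share, 0.303% to 0.329%, although these intervals cover counting error only. With cDNA the SR share was 0.208% and 0.266% in Undiff and 0.228% and 0.289% in Day4, so the states overlapped. The hnRNP share was 1.09% and 1.13% in Undiff and 1.16% and 0.878% in Day4 with Direct RNA. With cDNA it was 0.440% and 0.586% in Undiff and 0.553% and 0.759% in Day4, and the states overlapped with both kits. The number of SR reads per hnRNP read does not depend on how libraries are scaled. It was 0.393 and 0.401 in Undiff against 0.255 and 0.359 in Day4 with Direct RNA. With cDNA it was 0.472 and 0.453 in Undiff against 0.411 and 0.381 in Day4. In both kits the Day4 libraries thus lay below the Undiff libraries in this ratio, a description for which no test was made. The replicates of Day4 differed more from each other (SD 0.0735 with Direct RNA, n = 2) than those of Undiff did (SD 0.00571).

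**Figure D1:**
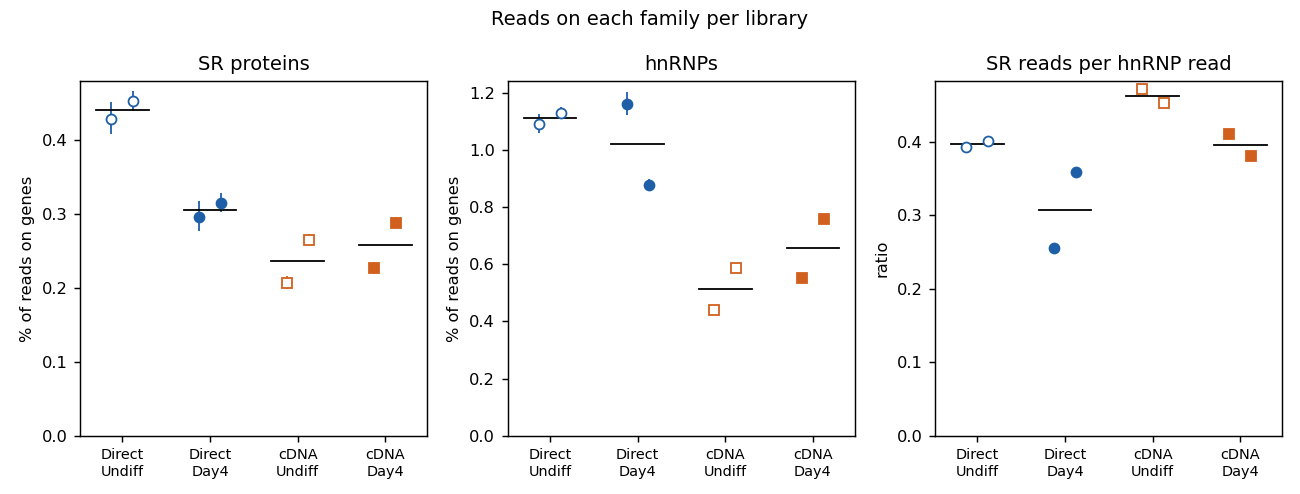
Share of the reads on genes taken by SR proteins (left) and hnRNPs (middle), in percent with 95% Wilson intervals, and SR reads per hnRNP read (right) in the 8 libraries. Each point is a library, open for Undiff and filled for Day4, and black bars are group means. The SR share separates the states with Direct RNA alone, whereas the ratio is lower in Day4 with both kits.

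Mean levels over the 8 libraries spanned 3.21 to 876 CPM among the SR proteins and 10.1 to 993 CPM among the hnRNPs. Hnrnpa2b1, which also sorts microRNAs and binds modified RNA, had the highest mean of all members over the 8 libraries at 993 CPM. Hnrnpa0, a binder of AU-rich elements, and Hnrnpc, which binds uridine tracts and shields introns from cryptic splicing, followed at 959 and 946 CPM. The order differed between kits, with Hnrnpab first in Direct RNA (mean 1692 CPM, against 1384 for Hnrnpa2b1) and Hnrnpk first in cDNA (1017 CPM, against 603 for Hnrnpa2b1, which came after Hnrnpc, Srsf3 and Hnrnpa0). Among SR proteins Srsf3, the smallest of them and an adaptor in mRNA export, led at 876 CPM over the 8 libraries, ahead of Srsf2 (476 CPM) and Srsf7 (429 CPM). The place of Srsf2 came from Direct RNA (742 CPM). With cDNA Srsf7 (342 CPM), Srsf5 (336 CPM) and Srsf10 (211 CPM) lay above Srsf2 (210 CPM). Srsf3 alone took 20.1% to 25.1% of SR reads with Direct RNA and 35.7% to 40.4% with cDNA. Per kilobase of the median coding transcript, which corrects for length although each long read is counted once, Hnrnpk came first with 851 CPM per kilobase, followed by Hnrnpa2b1 (605) and Hnrnpc (559), and Srsf3 ranked 7 with 335. This order depends on the length used, since the median transcript of Hnrnpk, at 952 bases, is shorter than its longest coding sequence of 1392 bases, and per kilobase of the longest transcript Hnrnpab ranked 1, Hnrnpc 3, Hnrnpk 4, Hnrnpa2b1 5 and Srsf3 8. The lowest member was Srsf12, an SR protein with 0 to 12 reads in a library and a mean of 3.21 CPM, which was under the mean of 5 normalized counts required for a call.

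Srsf3 was counted at 864 and 956 CPM in Undiff and 713 and 792 CPM in Day4 with Direct RNA, and at 746 and 948 CPM against 920.2 and 1072 CPM with cDNA. Hnrnpa0 was at 760.5 and 776 CPM in Undiff and 1432 and 1093 CPM in Day4 with Direct RNA, and at 596 and 545 CPM against 1207 and 1262 CPM with cDNA. In the same order, Hnrnpa2b1 was at 1418, 1642, 1369 and 1109 CPM with Direct RNA and at 347, 624, 668 and 772 CPM with cDNA, so that Day4 lay below Undiff with the first kit and above it with the second. Hnrnpc was at 949.9, 824, 1132 and 819 CPM with Direct RNA and at 626, 1029, 1011 and 1175 CPM with cDNA, and its states overlapped with both kits. Of these abundant members Hnrnpa0 alone was higher in Day4 without overlap in both kits, with log2 fold changes of 0.60 ± 0.27 (SE) and 0.78 ± 0.36, and neither passed the test (adjusted p = 0.15 and 0.18).

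**Figure D2:**
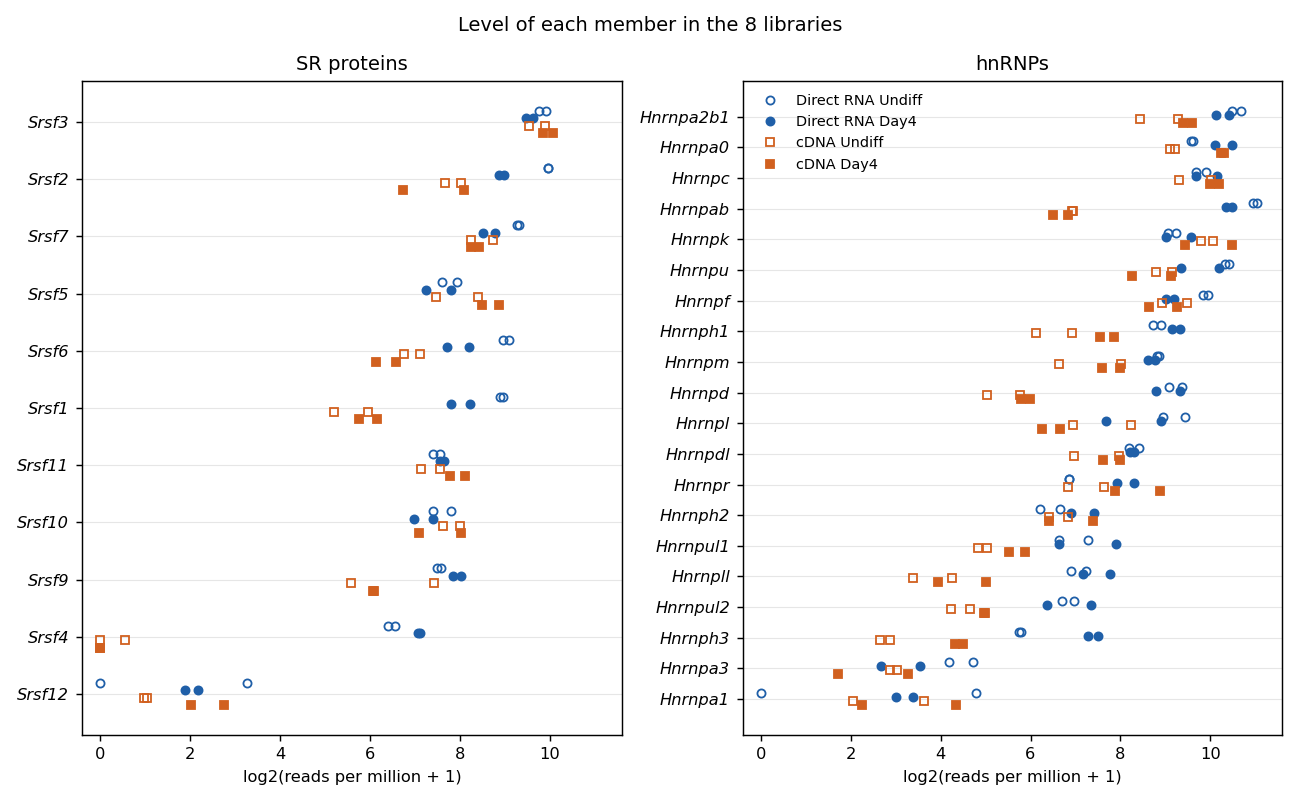
Level of each SR protein (left) and hnRNP (right) as log2(CPM + 1) in the 8 libraries, ordered by the mean over libraries. Blue circles are Direct RNA and orange squares cDNA, open for Undiff and filled for Day4. Srsf4 is near 0 in all cDNA libraries and at 83.2 to 138 CPM in Direct RNA, and Hnrnpa1 and Hnrnpa3 lie at the bottom of the hnRNPs with both kits.

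Hnrnpa1 and Hnrnpa3, both core hnRNPs that bind UAG-type elements and are described as abundant in dividing cells, were nevertheless the lowest of the 20 hnRNPs. They are singled out here after their values were seen. Hnrnpa1 (ENSMUSG00000046434.16, chr15:103240432-103246692, plus strand, GRCm38) had 0 and 24 reads in the Direct RNA Undiff libraries, 2 and 7 in Day4, and 3, 24, 5 and 40 in the cDNA libraries. Hnrnpa3 (ENSMUSG00000059005.13, chr2:75659261-75669407, plus strand) had 6, 23, 3 and 4 reads with Direct RNA and 6, 15, 3 and 18 with cDNA. Their means of 10.1 and 10.4 CPM ranked 30 and 29 of 31. In GENCODE vM21, 9 other genes match the coding sequence of Hnrnpa1 over at least 80% of its length with an identity of at least 90%, all of them processed pseudogenes, the intronless genomic copies of spliced mRNAs. Hnrnpa3 has 34 such copies, 32 of them annotated as pseudogenes. The count table lists 2 of the copies of Hnrnpa1, of which Gm10052 had 0 reads and Gm5643 had 1, 6, 1 and 3 reads with Direct RNA and 3, 6, 5 and 9 with cDNA. It lists 1 copy of Hnrnpa3, Gm6793, with 0 reads. The other members with copies were Hnrnpf and Srsf3, with 5 each, and 8 members with 1 each.

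The identity between a member and its copies is shown for 60 bases of coding sequence in exon 4 of Hnrnpa3 (chr2:75661896-75661955, sequence from GENCODE vM21 transcripts, GRCm38). Beside it stand its most and its least similar copy, Gm5641 on chromosome 3 and Gm42402 on chromosome 7, and capitals mark bases that differ from the member.
Hnrnpa3: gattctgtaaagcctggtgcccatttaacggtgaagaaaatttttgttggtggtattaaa
Gm5641: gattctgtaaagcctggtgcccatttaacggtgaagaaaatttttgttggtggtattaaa
Gm42402: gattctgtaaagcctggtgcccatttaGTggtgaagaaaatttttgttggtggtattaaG
The closest copy had 0 differences in this window and the most distant copy 3. Over the aligned coding sequence the copies ranged from 90.51% to 100% identity for Hnrnpa3 and from 90.33% to 100% for Hnrnpa1. Between 20.4% and 28.0% of aligned reads in a library had been left out of the counts because their mapping quality was too low. How many of them belong to these members was not tested, so the levels of Hnrnpa1 and Hnrnpa3 are uncertain. Hnrnpf and Srsf3, with 5 copies each, were at 649 and 876 CPM.

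**Figure D3:**
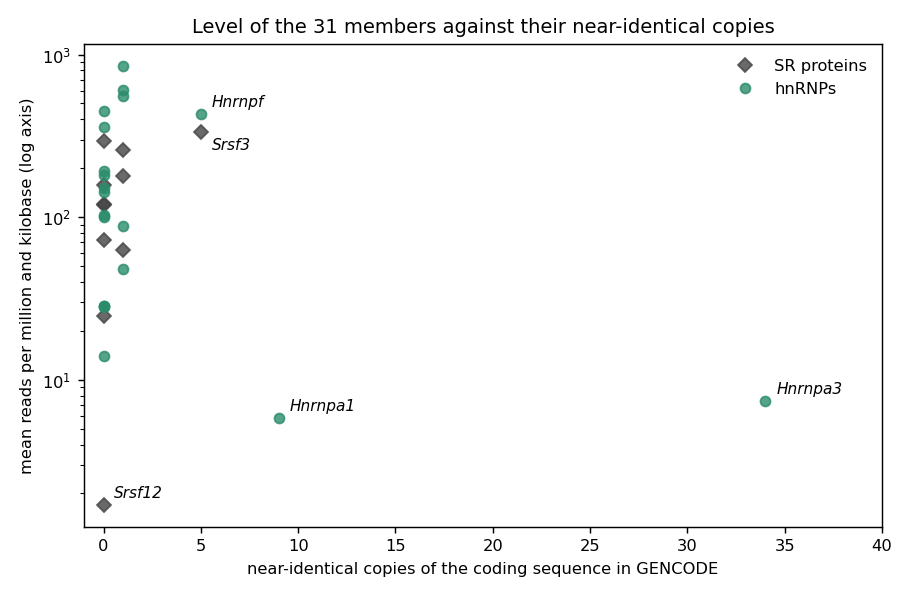
Mean level of the 31 members over the 8 libraries, in CPM per kilobase of the median coding transcript (log axis), against the number of near-identical copies of the coding sequence in GENCODE vM21. Hnrnpa3 with 34 copies and Hnrnpa1 with 9 lie at 7.43 and 5.81 CPM per kilobase, and only Srsf12, with 0 copies, is lower.

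Whether the members changed between Undiff and Day4 was tested for each kit separately with DESeq2 across all genes, where a call required an adjusted p of at most 0.05, normalized counts averaging 5 or more, and a change of 1 or more on the log2 scale in either direction. With Direct RNA 5 members were called, Srsf1, Srsf2 and Srsf6 lower in Day4 and Hnrnph3 and Hnrnpr higher. These are 5 of the 30 members with the required mean, and 17.2% of all genes with that mean were called, so that the share is near the background. No SR protein was called higher, where 9.54% of all genes were, and 3 of 10 were called lower, where 7.67% of all genes were. Of 20 hnRNPs 2 were called higher and 0 lower. The median log2 fold change was -0.46 over the SR proteins and -0.09 over the hnRNPs, against 0.03 over all genes. The fold changes are relative to the median of the genes, and factors from the total reads would move the median of all genes by 0.11 with Direct RNA and by 0.33 with cDNA.

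Srsf2 (SC35, a founding SR protein of the nuclear speckles, chr11:116849901-116853094, minus strand, ENSMUSG00000034120.18) was at 999 and 998 CPM in Undiff and at 504 and 466 CPM in Day4 with Direct RNA. Its Day4 libraries lay close to each other and far below the Undiff libraries, and the log2 fold change was -1.14 ± 0.27 (SE, adjusted p = 0.00058). Srsf6 (SRp55, chr2:162931528-162937121, plus strand, ENSMUSG00000016921.14) was at 496 and 544 CPM against 208 and 294 CPM, with a log2 fold change of -1.12 ± 0.33 (adjusted p = 0.0088). Srsf1 (SF2/ASF, the best-studied activator of exonic enhancers, chr11:88047373-88053755, plus strand, ENSMUSG00000018379.17) was at 476 and 499 CPM against 296 and 222 CPM, with a log2 fold change of -1.02 ± 0.32 (adjusted p = 0.017). In all 3 genes the Undiff libraries lay above the Day4 libraries. Srsf7, an SR protein with a zinc knuckle that also serves in export, had no overlap either, with 640.0 and 618 CPM in Undiff and 367 and 437 CPM in Day4, but it did not pass (log2 fold change -0.73 ± 0.29, adjusted p = 0.089). With cDNA it was at 300.4 and 424 CPM against 341 and 304 CPM, and the states overlapped.

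Hnrnph3 (chr10:63014664-63024217, minus strand, ENSMUSG00000020069.16) belongs to the hnRNPs that bind runs of guanines. It was at 54.5 and 52.9 CPM in Undiff and at 155 and 179 CPM in Day4 with Direct RNA, and the log2 fold change of 1.50 ± 0.47 was called (adjusted p = 0.016). Its relatives Hnrnph1 and Hnrnph2 did not pass, with 0.31 ± 0.29 and 0.61 ± 0.46, and Hnrnpf had -0.88 ± 0.27 with an adjusted p of 0.015 but below the required size. Hnrnpr (chr4:136310942-136359447, plus strand, ENSMUSG00000066037.14), a relative of Syncrip that travels with mRNAs in neurites, was at 115 and 115 CPM in Undiff and at 314 and 240.0 CPM in Day4 and was called with 1.13 ± 0.38 (adjusted p = 0.032). Hnrnpab, which binds AU-rich RNA, had 2086 and 1957 CPM in Undiff against 1432 and 1292 CPM in Day4, with -0.67 ± 0.24 and an adjusted p of 0.049, and it too stayed under the required size.

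Among other settings, these calls depended on single libraries, for the SR proteins on the filter and for Srsf1 on the scaling. Without either Undiff library none of the 5 was called. Without Day4 replicate 1 Srsf2 alone of the 5 remained called, while Hnrnpl and Hnrnpu were called lower in addition. Without Day4 replicate 2 Srsf2 and Srsf6 remained called. In each of these fits fewer of all genes were called as well. The log2 fold changes of the 5 kept their sign. They ranged from -1.25 to -1.09 for Srsf2, -1.41 to -0.84 for Srsf6 and -1.16 to -0.82 for Srsf1. For Hnrnph3 they ranged from 1.32 to 1.61 and for Hnrnpr from 0.99 to 1.29. A lone library is assumed in these fits to vary like the other group. When each library had to hold 10 reads or more, Srsf1, Srsf2 and Srsf6 came to -0.86, -0.97 and -0.95, all under the required size, and with factors from the total reads that of Srsf1 was -0.92.

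Not all separation between states reached the test. With Direct RNA the CPM of 8 members lay higher in both Day4 libraries than in either Undiff library and those of 12 lay lower, where 37.3% and 30.3% of all genes with the required mean did so. For the SR proteins with the required mean these were 3 and 5 of 10, and for the hnRNPs 5 and 7 of 20.

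With cDNA, Hnrnpl was the only member called between states, where 17.9% of all genes with the required mean were called (8.69% higher and 9.24% lower). Hnrnpl (chr7:28808541-28822266, plus strand, ENSMUSG00000015165.16), a binder of CA repeats, was at 300.4 and 122 CPM in Undiff and at 75.1 and 99.2 CPM in Day4, and fell by 1.59 ± 0.50 on the log2 scale (adjusted p = 0.016). The Undiff replicates thus differed by more than Undiff replicate 2 differed from Day4. Without Undiff replicate 1 the log2 fold change was -0.80 (adjusted p = 0.63), without Day4 replicate 1 it was -1.40 (0.31) and without Day4 replicate 2 -1.62 (0.21), so that of these 4 fits the call held only without Undiff replicate 2, and with factors from the total reads it was lost as well (-1.23, adjusted p = 0.081). With Direct RNA Hnrnpl was at 494 and 687 CPM against 476 and 203 CPM, a log2 fold change of -0.93 ± 0.39 that did not pass (adjusted p = 0.11) but that was called without Day4 replicate 1 (-1.55, adjusted p = 0.0043).

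None of the 11 SR proteins, of which 9 had the required mean with cDNA, was called by DESeq2 or by edgeR, and 1 had an unadjusted p of at most 0.05. Srsf6 was at 106 and 137 CPM in Undiff and at 69.8 and 95.3 CPM in Day4, without overlap, and its log2 fold change of -0.88 ± 0.43 had an adjusted p of 0.21. Srsf2 was at 203 and 259.5 CPM against 105 and 271 CPM, so that Day4 replicate 2 lay above both Undiff libraries (-0.65 ± 0.45, adjusted p = 0.49). Srsf1 was at 35.8 and 61.3 CPM against 53.1 and 69.8 CPM, and its log2 fold change of 0.01 ± 0.50 has a 95% interval from -0.98 to 0.99. The groups of Srsf1 overlapped in cDNA, whereas they had been apart in Direct RNA.

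Of the hnRNPs called with Direct RNA, Hnrnph3 had a log2 fold change of nearly the same size with cDNA, 1.39 ± 0.79, from 6.32 and 5.27 CPM in Undiff and 19.0 and 21.7 CPM in Day4, values that rest on 6, 11, 25 and 45 reads. It did not pass DESeq2 (adjusted p = 0.32) but was called by edgeR (1.53, adjusted p = 0.041). Hnrnpr was at 114 and 199 CPM in Undiff and at 234 and 468 CPM in Day4 with cDNA, a log2 fold change of 0.81 ± 0.44 that did not pass (adjusted p = 0.29). Both were higher in each Day4 library than in each Undiff library of both kits. In all, 10 members were above and 3 below without overlap in cDNA, where 43.1% and 23.2% of all genes were. These were 2 and 1 of the 9 SR proteins with the required mean and 8 and 2 of the 20 hnRNPs. The median log2 fold change with cDNA was -0.47 over SR proteins, 0.11 over hnRNPs and 0.00 over all genes.

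**Figure D4:**
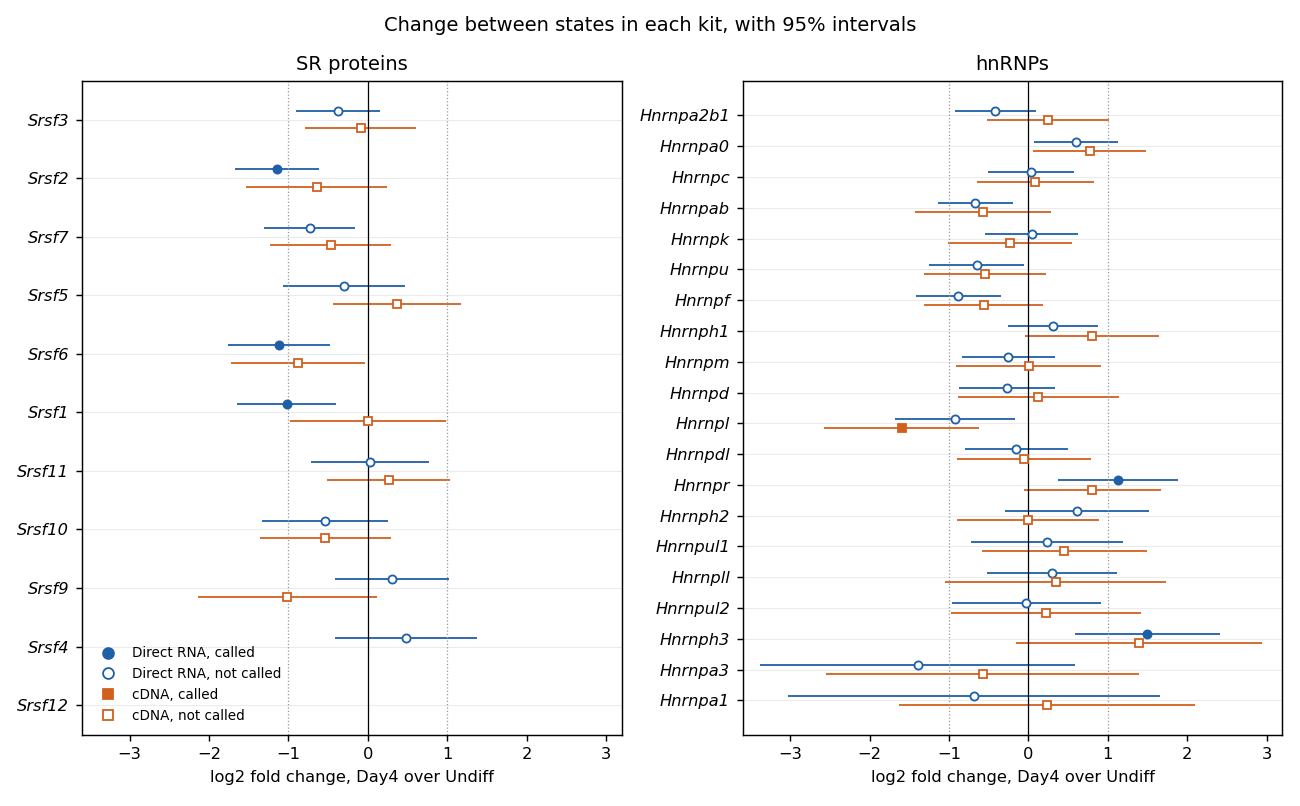
Log2 fold change of Day4 over Undiff for each SR protein (left) and hnRNP (right) with 95% intervals, blue circles for Direct RNA and orange squares for cDNA, filled where called. Dotted lines mark the required size. The 5 calls in Direct RNA and that of Hnrnpl in cDNA are filled, and members with a mean under 5 normalized counts in a kit are not drawn there.

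Whether a member changed differently in the 2 kits was tested by the interaction of kit and state over all 8 libraries with DESeq2. None of the 31 members was called, none had an unadjusted p of at most 0.05, and edgeR called none either, while 0.0116% of all genes tested were called. For Srsf1, called in Direct RNA alone, the difference between the kits' log2 fold changes was 1.03 ± 0.54 with a 95% interval from -0.04 to 2.09. For Hnrnpl, called in cDNA alone, it was -0.74 ± 0.71 with an interval from -2.13 to 0.65. The intervals are wide, and the calls in a single kit therefore do not show that the kits differ in these changes.

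The promoters of the 5 members called with Direct RNA are given as examples of the members called between states, 250 bases before to 50 after the annotated start (RefSeq, GRCm38.p6, 5′ to 3′ on the strand of the gene). Capitals mark matches on either strand to 4 motifs, the GC box GGGCGG, the CCAAT box CCAAT, the TATA box TATAAA and the E-box CACGTG, where adjoining matches run together. The 3 lower SR genes are Srsf1 (chr11:88047123-88047422), Srsf2 (chr11:116853045-116853344) and Srsf6 (chr2:162931258-162931557).
Srsf1: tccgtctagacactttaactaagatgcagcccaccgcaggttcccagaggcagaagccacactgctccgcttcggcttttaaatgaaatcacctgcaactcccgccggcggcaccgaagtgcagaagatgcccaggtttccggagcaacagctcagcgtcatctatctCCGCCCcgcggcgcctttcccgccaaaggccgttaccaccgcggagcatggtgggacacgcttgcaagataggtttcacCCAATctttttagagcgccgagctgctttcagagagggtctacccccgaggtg
Srsf2: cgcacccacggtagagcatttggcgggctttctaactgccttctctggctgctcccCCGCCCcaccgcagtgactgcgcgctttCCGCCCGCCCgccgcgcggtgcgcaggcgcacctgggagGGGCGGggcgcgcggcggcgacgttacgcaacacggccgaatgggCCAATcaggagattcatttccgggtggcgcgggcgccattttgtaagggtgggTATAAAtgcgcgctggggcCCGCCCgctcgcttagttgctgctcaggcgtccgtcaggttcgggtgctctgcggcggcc
Srsf6: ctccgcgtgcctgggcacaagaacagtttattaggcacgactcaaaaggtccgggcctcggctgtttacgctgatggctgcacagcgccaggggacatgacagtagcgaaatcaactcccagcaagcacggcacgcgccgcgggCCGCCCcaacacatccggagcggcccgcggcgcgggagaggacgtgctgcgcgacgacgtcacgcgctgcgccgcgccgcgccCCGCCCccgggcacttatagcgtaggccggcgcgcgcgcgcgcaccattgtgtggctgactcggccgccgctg
The 2 higher hnRNP genes are Hnrnph3 (chr10:63023800-63024099) and Hnrnpr (chr4:136310692-136310991). Hnrnpr has 2 annotated starts in the table, and the window shown is that of the start nearest to the 5′ end of the gene in GENCODE vM21.
Hnrnph3: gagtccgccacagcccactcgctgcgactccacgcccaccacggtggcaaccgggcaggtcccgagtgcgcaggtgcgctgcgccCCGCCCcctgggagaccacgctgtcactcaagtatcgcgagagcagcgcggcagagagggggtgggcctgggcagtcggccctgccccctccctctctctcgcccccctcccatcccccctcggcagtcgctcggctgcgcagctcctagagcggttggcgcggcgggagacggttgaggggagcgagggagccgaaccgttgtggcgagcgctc
Hnrnpr: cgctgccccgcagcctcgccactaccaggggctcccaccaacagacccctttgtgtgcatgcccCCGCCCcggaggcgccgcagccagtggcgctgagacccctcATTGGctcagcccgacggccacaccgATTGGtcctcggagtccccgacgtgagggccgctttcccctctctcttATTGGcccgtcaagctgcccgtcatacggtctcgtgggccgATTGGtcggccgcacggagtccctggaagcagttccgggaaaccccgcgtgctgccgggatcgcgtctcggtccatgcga
All 5 windows shown are rich in G and C, from 58.3% in Srsf1 to 73.0% in Hnrnph3, and each holds a GC box. Srsf2 has 5 GC boxes and the only TATA box of the 5, and the window of Hnrnpr has 4 CCAAT boxes. Among the 29 members with an entry, 10 of 11 SR genes and 14 of 18 hnRNP genes had a GC box in any of their annotated windows, which 35.9% of all 32544 promoters of this length hold. The CCAAT box was found in 4 of 11 and 13 of 18, against 37.4% of all promoters, the TATA box in 2 and 2 (13.6%), and the E-box in 0 and 5 (7.17%). A gene with several windows could match in any of them, so counts of genes and shares of single promoters are unlike measures. These matches are descriptions of letters. Among the 5 windows shown, GC and CCAAT boxes occurred in those of both lower and higher genes, the TATA box in that of Srsf2 alone and the E-box in 0.

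Whether the kits count these genes at the same level was asked in a fit of the 8 libraries that adjusts for state, and 15 of 30 members were called between kits, 4 higher and 11 lower in cDNA. This is again near the background, since 51.3% of all genes with the required mean were called, 24.7% higher and 26.6% lower. By family 2 SR proteins were higher and 4 lower, and 2 hnRNPs were higher and 7 lower. None had all 4 cDNA libraries above all 4 Direct RNA libraries and 16 had all of them below, where 9.75% and 30.1% of all genes did. Directions here depend on scaling. The fold changes are relative to the median gene, and with factors from the total reads the median of all genes moves by -0.76, none of the 4 higher members is called any more and 16 are called lower. Of the 10593 genes with the required mean in that fit, 1132 were called higher and 4394 lower.

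Hnrnpab had the lowest fitted value among members other than Srsf4. It was at 1292 to 2086 CPM in the 4 Direct RNA libraries and at 122, 120.2, 112 and 89.5 CPM in cDNA, here and below with Undiff before Day4, a log2 fold change of -3.13 ± 0.19 (adjusted p = 4.4e-61). Hnrnpd (AUF1), a close relative that speeds the decay of AU-rich mRNAs, was at 537, 658, 635 and 443 CPM against 31.6, 53.6, 62.2 and 53.9 CPM (-2.72 ± 0.24, adjusted p = 4.6e-28). In both genes the ranges of the kits were far apart. Hnrnph3 (-2.39 ± 0.30) and Hnrnpll (-2.30 ± 0.30), the latter known for the splicing of a leukocyte surface phosphatase, followed with adjusted p-values of 4.2e-14 and 2.7e-13. Hnrnpll was at 149, 118, 215 and 142 CPM in Direct RNA and at 9.49, 18.2, 14.4 and 31.3 CPM in cDNA.

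Of the SR proteins, Srsf1 was called lower in cDNA with a log2 fold change of -1.93 ± 0.27 (adjusted p = 9.7e-12) and Srsf6 with -1.12 ± 0.20 (1.1e-07). Srsf2 had -1.01 ± 0.25 (adjusted p = 0.00029), and its size fell just under the threshold with TMM factors (-0.92), with edgeR (-0.94) and without either Undiff replicate of Direct RNA (-0.99 and -0.95), either Undiff replicate of cDNA (-0.87 and -0.96) or Day4 replicate 1 of cDNA (-0.84). Hnrnph1 was at 476, 423, 639 and 564 CPM in Direct RNA and at 68.5, 119.7, 187 and 229.6 CPM in cDNA (-1.13 ± 0.20, adjusted p = 9.8e-08), and -0.93 without Undiff replicate 1 of cDNA. The large scaffold-like relatives of Hnrnpu were lower as well. Hnrnpul2 was at 123, 102, 162 and 81.3 CPM against 24.2, 17.7, 30.3 and 30.8 CPM (-1.41 ± 0.31, adjusted p = 2.4e-05). Hnrnpul1 was at 97.6, 154, 236 and 97.6 CPM against 27.4, 31.6, 44.8 and 57.8 CPM (-1.12 ± 0.32, adjusted p = 0.0017), a size that came to -0.94 without Undiff replicate 2 and -0.89 without Day4 replicate 1 of Direct RNA.

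Relative to the median gene, Hnrnpk, which binds cytosine-rich RNA through KH domains, was higher in cDNA by 1.48 ± 0.22 (adjusted p = 2.4e-10), although its levels overlapped, with 606, 534, 755 and 517 CPM for Direct RNA against 885, 1066, 693 and 1424 CPM for cDNA. Srsf5 (SRp40) was at 192, 242, 152 and 224 CPM against 175, 338, 361 and 469.8 CPM (1.38 ± 0.26, adjusted p = 8.9e-07). Both kept a positive sign with factors from the total reads (0.75 and 0.67) but were not called. Hnrnpr (1.10 ± 0.25, adjusted p = 4.8e-05) and Srsf10 (1.04 ± 0.23, adjusted p = 3.7e-05), the latter a splicing repressor when it loses its phosphates, came to 0.40 and 0.32 with total reads. With at least 10 reads in every library, Hnrnpk stayed called (1.08), while Srsf5 (0.98), Srsf10 (0.64) and Hnrnpr (0.70) came under the required size. Srsf10 was at 169, 220.4, 169 and 125 CPM in Direct RNA and at 196, 254, 134 and 259 CPM in cDNA. It lost its call without Undiff replicate 1 or Day4 replicate 2 of Direct RNA (0.94 and 0.95) and without Day4 replicate 2 of cDNA (0.91). Hnrnpr lost its call without Undiff or Day4 replicate 2 of cDNA (0.97 and 0.98). Hnrnpl, not called at -0.91 ± 0.37, was called at -1.09 without Undiff replicate 1 and at -1.05 without Day4 replicate 2 of Direct RNA, and at -1.32 without Undiff replicate 1 of cDNA. It was also called with factors from the total reads (-1.68), with at least 10 reads in every library (-1.27) and with no minimum fold change (-0.91, adjusted p = 0.042).

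**Figure D5:**
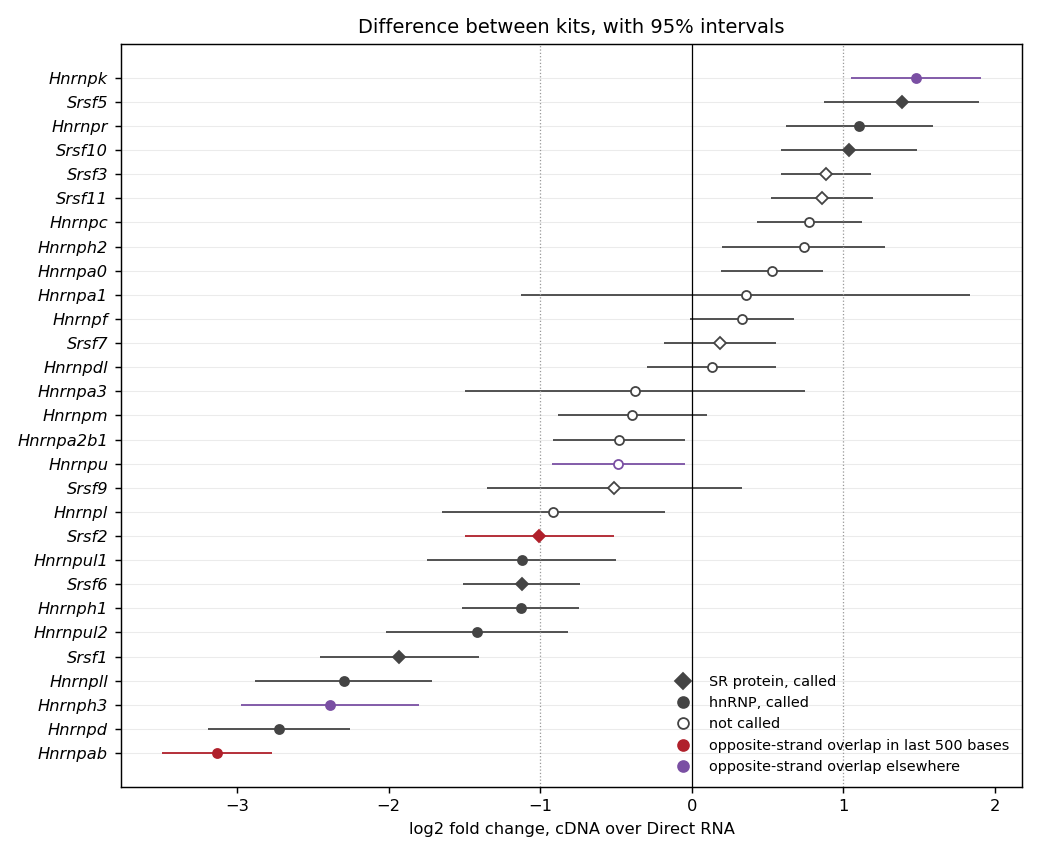
Log2 fold change of cDNA over Direct RNA for 29 members with 95% intervals, sorted, with diamonds for SR proteins, circles for hnRNPs and filled symbols for called members. Dotted lines mark the required size. Colours show members whose exons overlap a gene of the count table on the opposite strand, within the last 500 bases (Hnrnpab and Srsf2, both lower in cDNA) or elsewhere. Srsf4 is not drawn since it rests on 1 cDNA read, and Srsf12 is under the required mean.

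Srsf4 (SRp75, chr4:131873617-131901706, plus strand, ENSMUSG00000028911.16) was almost absent from cDNA. It had 29 and 85 reads in the Undiff and 39 and 98 in the Day4 libraries of Direct RNA, which is 83.2, 93.7, 138 and 133 CPM. In cDNA it had 0, 1, 0 and 0 reads. Pooled over libraries, 251 reads of 2276976 against 1 of 6432754 give a level 709 times as high in Direct RNA, with an exact 95% interval from 126 to 28118 that covers counting error only. Between states the Direct RNA levels did not overlap, but the log2 fold change of 0.48 ± 0.45 was not called (adjusted p = 0.69).

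The end of Srsf4 lies within Gm12992, a gene on the opposite strand that shares 1532 bases with its exons. Direct RNA reads had been counted by strand, whereas for cDNA the methods name no strand option at the gene level and counted exons without strand. Without strand the default mode of htseq-count gives a read that covers genes on both strands to neither. Reads called ambiguous made up 1.41% to 1.58% of aligned reads in Direct RNA and 4.38% to 5.05% in cDNA. Gm12992 itself had 0, 0, 5 and 1 reads in Direct RNA and 0, 0, 7 and 12 in cDNA. Of the members, 6 share exonic bases with a gene on the opposite strand that the count table lists. A further 5, Hnrnpd, Hnrnpf, Hnrnpl, Hnrnpr and Srsf1, do so in GENCODE vM21 with genes that the table does not list, and overlaps below are those with listed genes. In Hnrnpab (809 bases with Phykpl), Srsf2 (460 with Mettl23 at its end and 288 with Mfsd11 near its start) and Srsf4 the overlap reaches the last 500 bases of the gene, and all 3 were called lower in cDNA. Srsf4 met the required mean only through its Direct RNA reads, since its mean was 0.19 normalized counts in the fit of the cDNA libraries. In Hnrnph3 (115 with Rufy2), Hnrnpk (330 with Rmi1) and Hnrnpu (804 with Cox20) the overlap lies elsewhere, and Hnrnph3 was called lower, Hnrnpk higher and Hnrnpu neither. Across all genes with a match in the annotation, 48.0% of the 892 with an overlap in the last 500 bases were called lower in cDNA, 28.8% of the 1073 with an overlap elsewhere and 24.0% of the 8110 with no listed partner. Of the 24 members without a listed partner 7 were called lower, among them Hnrnpd and Hnrnpll, and 3 higher. Whether reads of Srsf4, Hnrnpab and Srsf2 were left out for this overlap was not tested.

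Other genes of the same machinery were read from lists. Of 22 proteins with an arginine-serine domain under other names, such as Tra2b, U2af1 and Srrm2, 1 was called lower and none higher between states with each kit, where 7.67% and 9.54% of all genes were called lower and higher with Direct RNA and 9.24% and 8.69% with cDNA. Rbm25, a regulator of 5′ splice site choice, was called lower with Direct RNA, from 132 and 189.5 CPM to 38.8 and 70.5 CPM (-1.57 ± 0.50, adjusted p = 0.020), and had -0.43 ± 0.43 with cDNA. Arglu1, a coactivator that also acts in splicing, was called lower with cDNA, from 909 and 620.0 CPM to 356 and 478 CPM (-1.20 ± 0.39, adjusted p = 0.025), and had -1.07 ± 0.59 with Direct RNA. Between kits 13 of this list were called higher and 4 lower in cDNA, with a median log2 fold change of 1.08 relative to the median gene, beside -0.16 for the SR proteins. Of all genes 24.7% were called higher and 26.6% lower. The higher direction depends on scaling, since with factors from the total reads 1132 of all genes were called higher rather than 2572, and the counts of this list were not recomputed with those factors.

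Of 10 genes for enzymes and import factors that act on these proteins, 8 had the required mean. Srpk1, the main kinase that phosphorylates SR proteins in the cytoplasm before they enter the nucleus, was called lower with both kits. It was at 103 and 94.8 CPM in Undiff and 28.2 and 31.2 CPM in Day4 with Direct RNA (-1.75 ± 0.58, adjusted p = 0.026), and at 486 and 374 CPM against 219 and 263 CPM with cDNA (-1.15 ± 0.39, adjusted p = 0.031). It was the only gene of this list called between states, 1 of 8 with each kit, where 17.2% of all genes with the required mean were called with Direct RNA and 17.9% with cDNA. The related kinase Srpk2 was at 45.9 and 40.8 CPM against 21.2 and 25.8 CPM with Direct RNA and at 100.1 and 72.8 CPM against 105 and 132 CPM with cDNA, and did not pass with either (adjusted p = 0.60 and 0.95).

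Of 11 hnRNP proteins that carry other symbols, 1 was called between states with Direct RNA and 2 with cDNA, all of them higher in Day4, where 9.54% and 8.69% of all genes were. Ptbp2, the form of the polypyrimidine tract binding protein that neural precursors use, was called with both kits. It was at 23.0 and 14.3 CPM in Undiff and 116 and 50.2 CPM in Day4 with Direct RNA (1.95 ± 0.69, adjusted p = 0.043), and at 16.9 and 20.6 CPM against 84.2 and 133 CPM with cDNA (2.13 ± 0.51, adjusted p = 0.000645). Its widely expressed relative Ptbp1 was at 611, 760.3, 564 and 492 CPM in the same order of Direct RNA libraries and did not pass with either kit (-0.49 ± 0.29 and -0.30 ± 0.46). Rbmx (hnRNP G, on the X chromosome) was called higher with cDNA, from 16.9 and 18.7 CPM to 62.2 and 191 CPM (2.38 ± 0.57, adjusted p = 0.000625), and with Direct RNA it went from 2.87 and 8.82 CPM to 24.7 and 69.1 CPM and just missed the threshold (2.49 ± 0.91, adjusted p = 0.054). Between kits 3 of this list were called higher and 5 lower in cDNA, where 24.7% and 26.6% of all genes were. The lowest were Pcbp2 (-5.57 ± 0.28), Raly (-5.36 ± 0.29) and Pcbp4 (-4.87 ± 0.40).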

How the data were processed

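ONT Direct RNA and cDNA libraries of Undiff and Day4 cells were analysed from deposited whole-number read counts per gene symbol, with no normalization. The authors had cleaned Direct RNA reads with Poreplex and cDNA reads with porechop, aligned them to mm10 with minimap2 and counted them with htseq-count on the UCSC annotation, by strand for Direct RNA. Each library is a replicate of the group its labels give, and by the methods replicates were grown and treated separately. State effects per kit, the kit effect and the interaction were tested over all genes with DESeq2 1.42.0 (R 4.3.3; fold changes shrunk except in the interaction, independent filtering and Cook's cutoff off), with Benjamini-Hochberg adjustment, and edgeR 4.0.16 as the alternative. Values after ± are SE unless named otherwise. The fits were tested on simulated counts. Counters of unassigned reads entered no test. Coordinates, transcript lengths and copies (blastn 2.17.0) come from GENCODE vM21 and promoters from RefSeq. Members, gene lists and tests were chosen with earlier results of these data known. Named with values in every library were members called in any test, the 3 highest of each family, Hnrnpa1, Hnrnpa3 and Srsf9. The others entered ranges, counts or single fold changes. Alternatives were other scaling, filters, thresholds, a replicate block and leaving out each library. Protein sequences, short reads, exon and isoform counts were not analysed here.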

Additional observations from a re-analysis of the deposited data

Results flagged for a closer look

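Hnrnpa2b1 moved in opposite directions in the 2 kits without overlap of the states. With Direct RNA it was at 1418 and 1642 CPM in Undiff and at 1369 and 1109 CPM in Day4, and with cDNA at 347 and 624 CPM in Undiff and at 668 and 772 CPM in Day4. The log2 fold changes were -0.42 ± 0.26 and 0.25 ± 0.39, neither of them called. The difference between them was 0.67 ± 0.46 in the test of the interaction by DESeq2, with an adjusted p of 1.00 and a 95% interval from -0.23 to 1.57. Without Undiff replicate 1 the cDNA value was -0.13.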

How the results depend on the processing

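With Direct RNA, 5 members were called between states. This number was also found with edgeR, with TMM factors, without shrinkage and with independent filtering. It was 4 with factors from total reads (without Srsf1), 7 with no minimum fold change, 2 with at least 10 reads in every library (Hnrnph3 and Hnrnpr) and 0 to 3 when each library was left out in turn (the 3 being Srsf2, Hnrnpl and Hnrnpu). With the replicate block it was 2 (Srsf2 and Srsf6), with an adjusted p of 0.057 for Srsf1, 0.15 for Hnrnph3 and 0.17 for Hnrnpr. The labels do not say that replicate numbers pair the libraries, and deviations of same-numbered libraries over 1395 genes correlated at 0.21 between states in Direct RNA, 0.50 between states in cDNA, 0.12 between kits in Undiff and -0.42 between kits in Day4. With cDNA the count of 1 became 2 with edgeR (Hnrnph3 added) and was 0 to 1 when a library was left out, and with total reads Hnrnpa0 was called in place of Hnrnpl (1.10, adjusted p = 0.018). The interaction stayed at 0 in every alternative run. The 15 calls between kits ranged from 13 to 15 without a library, with 10 at a minimum of 10 reads (1 higher and 9 lower), and crossing the Day4 numbers in the block left 15 for the kits and 0 for the interaction, an alternative chosen after seeing the data.

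Signs reversed in values that had not been called. Without a library, Hnrnpc ranged from -0.14 to 0.24 with Direct RNA, and with cDNA Hnrnpc ranged from -0.24 to 0.37, Hnrnpa2b1 from -0.13 to 0.62 and Srsf1 from -0.32 to 0.33. Srsf3 in cDNA went to 0.23 with total reads and to 0.089 with at least 10 reads in every library. Between kits, total reads gave -0.23 for Hnrnpa0, -0.39 for Hnrnpf and -0.56 for Srsf7, and the minimum of 10 reads gave -0.063 for Hnrnpf and -0.22 for Srsf7. The cause was not tested. Without the 100 most abundant genes the SR share was 0.528% and 0.564% against 0.356% and 0.391% with Direct RNA. Depth limits Srsf12, which had at most 12 reads in a library.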

Other observations

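Srsf9, a short SR protein, differed between replicates of a group. With cDNA it was at 171 and 46.9 CPM in Undiff and at 67.5 and 66.4 CPM in Day4, so that Undiff replicate 1 stood above the other 3 libraries. With Direct RNA it was at 178 and 189.5 CPM in Undiff and at 229 and 260.3 CPM in Day4. Neither difference between states was called. Between kits Srsf9 was not called (-0.51 ± 0.43). It was called lower in cDNA with factors from the total reads and when Undiff replicate 1 of cDNA was left out.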
